A study of Mus musculus with 12 samples.

Results

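The enzymes that remove superoxide and peroxide were followed here as a set of 10 named genes. These genes were chosen for their function from textbook knowledge, but with earlier results of these data known. They were the superoxide dismutases Sod1, Sod2 and Sod3, the catalase gene Cat, the glutathione peroxidases Gpx1, Gpx2, Gpx3 and Gpx4, and the peroxiredoxins Prdx1 and Prdx6. All 10 are among the 56262 genes of the lung count table and among the 54532 genes of the count table of sorted cells. Spontaneous lung tumours and the normal lung beside them were taken at 18 months from the same 3 C57BL/6 mice, numbered 102, 217 and 224. Each carried a Med23 knockout in T cells, so tumour and adjacent lung share that deletion and no lung of wild-type mice was compared. Alveolar type 2 (AT2) cells, the surfactant-making cells of the alveolus, were sorted by flow cytometry from 6-month-old C57BL/6 mice, 3 with the same knockout in T cells (175, 179 and 191) and 3 wild type (176, 177 and 190). The Cre line behind the deletion and the gate of the sort were not given in the sources used here.

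Superoxide is a by-product of respiration and the main product of the NADPH oxidases. Superoxide dismutases turn it into hydrogen peroxide, with Sod1 in the cytosol, Sod2 in the mitochondrial matrix and Sod3 secreted and held on the extracellular matrix, where the lung and its vessels are known for high levels. Hydrogen peroxide is then split by catalase in peroxisomes, or reduced by glutathione peroxidases at the expense of glutathione and by peroxiredoxins at the expense of thioredoxin. Prdx6 differs from the other peroxiredoxins in using glutathione, and it also has a phospholipase activity that acts on the lipids of lung surfactant.

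The 4 glutathione peroxidases of the set are selenoproteins: a TGA codon in their reading frame is read as selenocysteine, the catalytic residue, and not as a stop. The codon is shown in capitals with the 8 codons on each side, read from the transcripts of GENCODE M21 (build GRCm38), because it is the feature that these 4 members share and the other 6 lack. On the genome the TGA lies at chr9:108339451-108339453 (plus strand) in Gpx1, at chr12:76795256-76795258 (minus strand) in Gpx2, at chr11:54907256-54907258 (plus strand) in Gpx3 and at chr10:80054737-80054739 (plus strand) in Gpx4.
Gpx1: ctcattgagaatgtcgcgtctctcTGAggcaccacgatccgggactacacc
Gpx2: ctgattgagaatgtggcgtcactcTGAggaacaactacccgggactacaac
Gpx3: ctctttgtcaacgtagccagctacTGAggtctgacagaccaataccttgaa
Gpx4: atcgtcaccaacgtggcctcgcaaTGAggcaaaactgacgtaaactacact
Over these 51 bases the cytosolic pair Gpx1 and Gpx2 were identical at 43 positions (84.3%). Gpx3, the secreted plasma enzyme, matched each of them at 24 positions (47.1%), and Gpx4, which reduces lipid peroxides within membranes, matched each of them at 29 positions (56.9%). Gpx3 and Gpx4 matched at 26 positions (51.0%).

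The lung libraries held 65163100 to 77951014 counts each and the AT2 libraries 15943084 to 18913242. Levels are given in CPM, a gene's counts scaled to a library of a common size after TMM normalisation, and as mean ± SD over 3 libraries. Med23 itself had 27.0 ± 9.29 CPM in tumours and 27.4 ± 5.64 CPM in adjacent lung, and 44.7 ± 2.35 CPM in knockout AT2 cells and 40.2 ± 5.98 CPM in wild-type AT2 cells. Its deletion lies in T cells, so these levels check no label. The surfactant gene Sftpc took 3.73% to 14.7% of the counts of tumours, highest in mouse 217, and 1.41% to 3.19% of those of adjacent lung. Markers of AT2 cells summed to 144266 to 147181 CPM in knockout AT2 cells and 145233 to 182553 CPM in wild-type AT2 cells, so the sorted cells were rich in them. Alveolar type 1, club and ciliated cell markers summed to 1399 to 1480, 575 to 746 and 391 to 442 CPM in knockout cells. In wild-type cells they summed to 1407 to 1855, 526 to 654 and 285 to 454 CPM. The purity of the sort was not tested. The libraries of mouse 217 stood apart, as long genes had lower counts there. The measure was the rank correlation between gene length and level, relative to the mean of all libraries of the table. It was -0.25 in the tumour and -0.22 in the adjacent lung of mouse 217. In tumour and adjacent lung it was 0.12 and 0.21 in mouse 102, and 0.059 and 0.057 in mouse 224. Among AT2 libraries the same measure was 0.10 to 0.16 in knockout cells and -0.22 to 0.31 in wild-type cells.

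In lung, the members that stood furthest apart were the secreted ones. Sod3 and Gpx3 were lower in the tumour than in the adjacent lung of every mouse, and so was Prdx6, 3 of 10 members where 29.3% of all genes did so. Cat and Sod1 were higher in the tumour of every mouse, 2 of 10 where 28.2% of genes did so. Sod2, Gpx1, Gpx2, Gpx4 and Prdx1 showed no common direction across the 3 mice. In edgeR's quasi-likelihood test with group as the only term, 0 of the 10 members had an adjusted p under 0.05, where 10% of the 19995 genes tested did (2.86% higher and 7.18% lower in tumour), and 4 of the 10 had an unadjusted p under 0.05, where 24.0% of genes did. DESeq2 and limma-voom each called 1 member of the 10 on the same counts, Sod3. Of the 2007 genes that edgeR called with group alone, DESeq2 called 2002 and limma-voom 1867. So each called at least that many of the 19995 genes. An unadjusted p under 0.05 was found for 4 members and 5423 genes in DESeq2, and for 4 members and 4977 genes in limma-voom. With the mouse as a block, which uses the fact that tumour and adjacent lung came from the same animals, 3 members passed, all lower in tumour (Sod3, Gpx3 and Prdx6). With the block 9.34% of genes passed as lower and 5.57% as higher, 14.9% in all. An unadjusted p under 0.05 with the block was found for 5 of the 10 members and 33.1% of genes. The median log2 fold change of the 10 members was -0.18, and that of all genes tested was 0.04. The groups did not overlap for 2 of the 10 members (Cat and Sod3), a share no larger than the 30.5% of all genes.

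**Figure D1:**
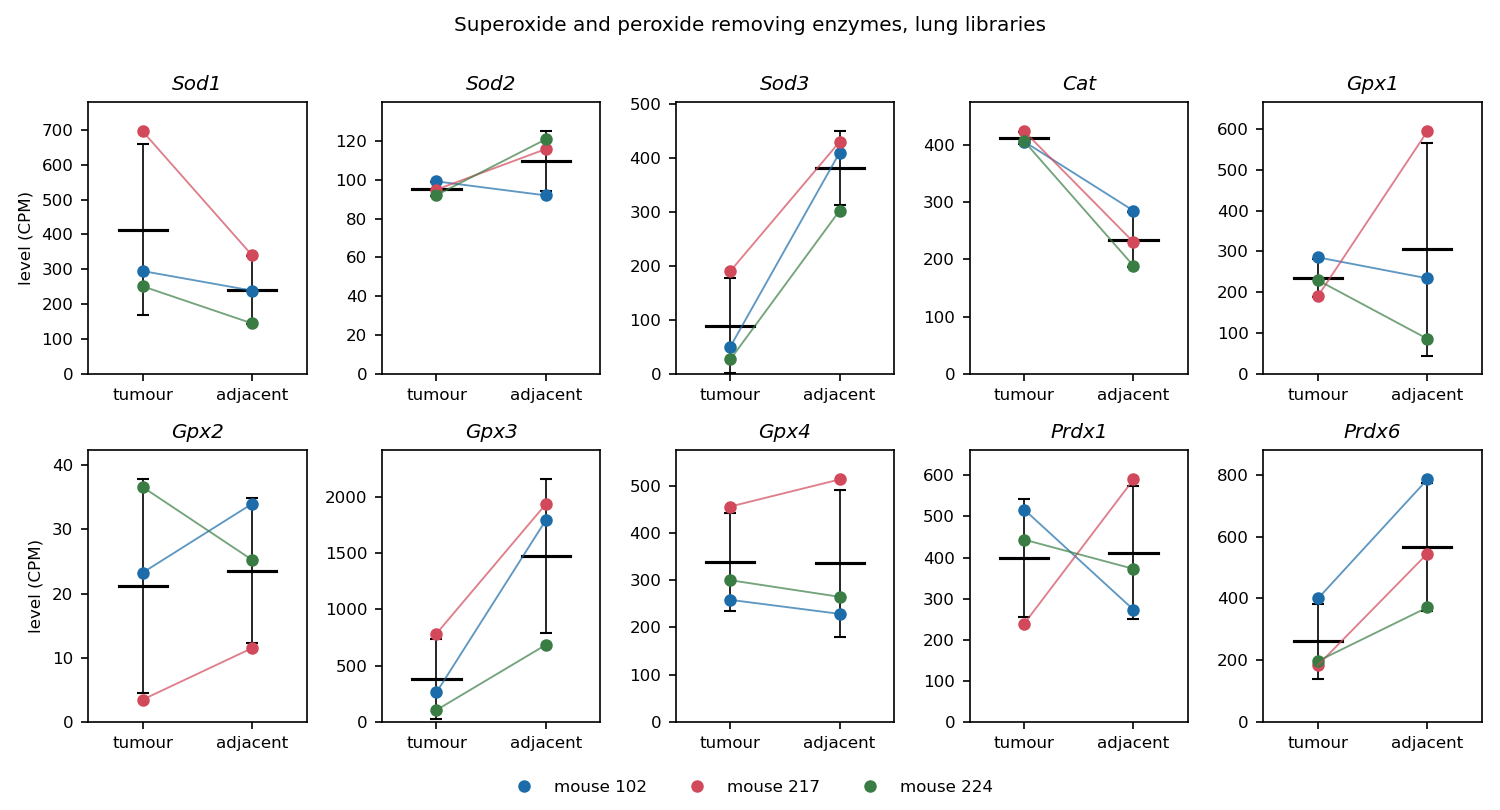
Level of each enzyme in CPM (vertical axes, each starting at 0) in the tumour and adjacent lung of 3 mice. Points are libraries, lines join the libraries of 1 mouse, and bars with whiskers give the mean ± SD. Sod3, Gpx3 and Prdx6 are lower in the tumour of each mouse, and the 3 tumour values of Cat (406 to 424 CPM) lie above all adjacent values.

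Sod3 (chr5:52363791-52371418, plus strand, GRCm38) had 50.2, 190.4 and 26.7 CPM in the tumours of mice 102, 217 and 224, against 410, 430 and 303 CPM in their adjacent lung. Every tumour lay below every adjacent sample, and the tumour of mouse 217 held the most of the 3. As a ratio of tumour to adjacent lung within a mouse, this was 0.122 in mouse 102, 0.443 in mouse 217 and 0.0884 in mouse 224. Its mean was 89.1 ± 88.5 CPM over tumours and 381 ± 68.7 CPM over adjacent samples, a log2 fold change of -2.10 ± 0.70 (standard error) with group alone and -2.59 ± 0.53 with the mouse as a block. Its adjusted p in edgeR was 0.106 with group alone (0.00947 to 0.261 over 13 alternatives without the block) and 0.0381 with the mouse as a block (3.8e-06 to 0.146 over 10 alternatives with the block). Without the tumour of mouse 217 the adjusted p of the edgeR test on group alone was 0.00947, and the log2 fold change was -3.38. With the block, the call was lost without mouse 102, without mouse 224 and without the filter on low counts.

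Markers of several other cell types were lower in tumours, as Sod3 was. Beside the sets below, 3 of 5 club, 5 of 5 ciliated and 5 of 5 erythroid markers were lower in every tumour than in any adjacent sample. This held for 18.9% of all genes. Of the 9 AT2 markers 6 were higher in every tumour than in any adjacent sample, where 11.6% of all genes were. The 6 fibroblast markers summed to 373 to 804 CPM in tumours and 1404 to 2457 CPM in adjacent lung, with 5 of 6 lower in every tumour than in any adjacent sample, although 0 of 6 passed edgeR's test on group alone and 3 of 6 passed with the block. The 6 endothelial markers, all 6 of which passed as lower, summed to 554 to 605 CPM in tumours and 2556 to 4131 CPM in adjacent lung. The 5 smooth muscle markers, of which 3 passed as lower, summed to 74.9 to 261 CPM in tumours and 275 to 1065 CPM in adjacent lung. By mouse (102, 217 and 224), the tumours had fibroblast sums of 734, 804 and 373 CPM and smooth muscle sums of 238, 261 and 74.9 CPM. Both were highest in mouse 217 and lowest in mouse 224, as Sod3 was. The endothelial sums of the same tumours lay closer together, at 605, 554 and 591 CPM, and were lowest in mouse 217. None of these markers was at 0 in a whole lung group. The part of these markers in the result was not tested. In such bulk samples fewer cells of a type and less RNA per cell cannot be told apart.

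Sod1 (chr16:90220754-90226329, plus strand) had 295, 696 and 251 CPM in the tumours of mice 102, 217 and 224, against 239, 341 and 145 CPM in adjacent lung. It was higher in the tumour of each mouse, as were 28.2% of all genes, while the groups overlapped because mouse 217 was high in both tissues. The log2 fold change was 0.78 ± 0.51, and the adjusted p in edgeR was 0.424 with group alone and 0.0938 with the block (0.0189, in DESeq2, to 0.331 over 10 alternatives with the block). Reads of Sod1 can be shared with a processed pseudogene, Gm8566, whose counts were 1.19% to 4.03% of those of Sod1 in tumours and 1.39% to 2.98% in adjacent lung.

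Sod2, the mitochondrial enzyme (chr17:13006846-13040063, plus strand), had 99.1, 94.9 and 92.1 CPM in the 3 tumours, against 91.9, 116 and 121 CPM in adjacent lung. Mouse 102 was higher in its tumour and mice 217 and 224 were lower in theirs. Its log2 fold change was -0.20 ± 0.27, with an adjusted p of 0.737 in edgeR.

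Cat (chr2:103453849-103485160, minus strand) had 406, 424 and 406 CPM in the tumours of mice 102, 217 and 224, against 285, 230.2 and 189 CPM in adjacent lung. The 3 tumours lay close together and above all 3 adjacent samples, at 412 ± 10.3 CPM against 235 ± 48.3 CPM. Scaled by library totals alone, without the TMM factors, the tumours were further apart, at 390, 342 and 413 CPM. They still lay above all adjacent samples (218 to 309 CPM). The ratio of tumour to adjacent lung was 1.42 in mouse 102, 1.84 in mouse 217 and 2.15 in mouse 224. The log2 fold change of 0.81 ± 0.30 had an adjusted p of 0.146 in edgeR with group alone and 0.0567 with the block. Over 10 alternatives with the block it ran from 0.0013 to 0.258, and DESeq2, limma-voom and the gene length correction called Cat. Summed AT2 markers were also higher in tumours. The 9 markers came to 74882, 227873 and 94651 CPM in the tumours of mice 102, 217 and 224. In adjacent lung they came to 21859, 42985 and 28038 CPM, lowest in mouse 102, where Cat was highest. Of the 9 markers, 2 passed as higher in tumour with group alone and 6 with the block in edgeR. Their part in the result was not tested.

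Among the glutathione peroxidases, Gpx3 (chr11:54902453-54910377, plus strand) had 263, 785 and 106 CPM in the tumours of mice 102, 217 and 224, against 1792, 1935 and 685 CPM in adjacent lung. The groups overlapped, since the tumour of mouse 217 was above the adjacent lung of mouse 224, yet each tumour was below the adjacent lung of its own mouse. The ratio of tumour to adjacent lung was 0.147 in mouse 102, 0.406 in mouse 217 and 0.154 in mouse 224. Gpx3 had a mean of 384 ± 356 CPM over tumours and 1471 ± 685 CPM over adjacent samples. On the log2 scale the difference was -1.94 ± 0.76 with group alone and -2.26 ± 0.38 with the block. The adjusted p in edgeR was 0.168 with group alone (0.0352 to 0.345 over 13 alternatives) and 0.0257 with the block (1.79e-07 to 0.143 over 10 alternatives). Without the tumour of mouse 217 the fit on group alone called it (adjusted p 0.0352, edgeR), and the block lost the call without mouse 102 or without mouse 224. The fibroblast, endothelial and smooth muscle markers given beside Sod3 were lower in tumours, as Gpx3 was, and so were club cell markers. The club cell markers summed to 1156 to 2558 CPM in tumours and 16370 to 35911 CPM in adjacent lung, with 3 of 5 passing as lower. Summed AT2 markers were higher in tumours. Among tumours the fibroblast and smooth muscle sums were highest in mouse 217 and lowest in mouse 224, as Gpx3 was. The endothelial sum was lowest in mouse 217 (605, 554 and 591 CPM in mice 102, 217 and 224), and the club cell sum was highest in mouse 102. The part of these markers in the result was not tested.

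Gpx1, the most widely expressed enzyme of the family (chr9:108338903-108340343, plus strand), had 285, 191 and 229 CPM in the tumours of mice 102, 217 and 224, against 234, 595 and 85.7 CPM in adjacent lung. It was higher in the tumours of mice 102 and 224 and lower in that of mouse 217, whose adjacent lung held the highest value of all. The log2 fold change was -0.37 ± 0.63 with group alone and 0.05 ± 0.63 with the block, and the adjusted p in edgeR was 0.799 and 0.971. Red cells are known for high Gpx1. Erythroid markers summed to 135 to 2840 CPM in tumours and 4602 to 20390.3 CPM in adjacent lung, highest in each tissue in mouse 217. Among tumours, that of mouse 217 held the least Gpx1. The adjacent lung of mice 102 and 224 had erythroid sums of 4667 and 4602 CPM, with 234 and 85.7 CPM of Gpx1. The part of erythroid markers in the spread of Gpx1 was not tested.

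Gpx2, the epithelial enzyme of the family (chr12:76792333-76795554, minus strand), had 23.3, 3.47 and 36.6 CPM in the tumours of mice 102, 217 and 224, against 34.0, 11.5 and 25.3 CPM in adjacent lung. Mouse 217 was the lowest in each tissue. With a log2 fold change of -0.16 ± 0.76, its adjusted p in edgeR was 0.939.

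Gpx4 (chr10:80047166-80056439, plus strand) had 258, 456 and 300 CPM in the tumours of mice 102, 217 and 224, against 229, 513 and 265 CPM in adjacent lung. Mouse 217 was highest in each tissue, and within a mouse the tumour stayed within 0.18 log2 units of its adjacent lung. With group alone its log2 fold change was 0.01 ± 0.42 (adjusted p 0.994, edgeR), and with the block 0.06 ± 0.18. A transcribed pseudogene, Gpx4-ps2 on chromosome 10, matches Gpx4 at 99.7% of 733 bases. Its counts were 13.7% to 19.3% of those of Gpx4 in tumours and 16.5% to 22.6% in adjacent lung, so the level of Gpx4 is uncertain by that much.

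Prdx6 (chr1:161240112-161251219, minus strand) had 400, 184 and 197 CPM in the tumours of mice 102, 217 and 224, against 785, 545 and 371 CPM in adjacent lung. The tumour of mouse 102 overlapped the adjacent lung of mouse 224, while within each mouse the tumour was lower. The ratio of tumour to adjacent lung was 0.510 in mouse 102, 0.338 in mouse 217 and 0.532 in mouse 224, the narrowest spread among the 3 enzymes that passed with the block. The mean of Prdx6 was 261 ± 121 CPM over tumours and 567 ± 208 CPM over adjacent samples. Its log2 fold change was -1.12 ± 0.45 with group alone and -1.15 ± 0.22 with the block. Its adjusted p in edgeR was 0.177 with group alone (0.0941 to 0.435 over 13 alternatives) and 0.0330 with the block (4.25e-05 to 0.179 over 10 alternatives). The block lost this call when any 1 of the 3 mice was left out. The summed markers of club, ciliated, endothelial and fibroblast cells were lower in every tumour than in any adjacent sample. Those of ciliated cells came to 18.3 to 53.1 CPM in tumours and 815 to 1603 CPM in adjacent lung. The summed AT2 markers went the other way, with 74882 to 227873 CPM in tumours and 21859 to 42985 CPM in adjacent lung. Their part in the result was not tested.

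Prdx1, a cytosolic peroxiredoxin (chr4:116685544-116700822, plus strand), had 517, 239 and 443 CPM in the tumours of mice 102, 217 and 224, against 273, 590 and 372 CPM in adjacent lung. As with Gpx1, mouse 217 went one way and mice 102 and 224 the other. Prdx1 had a log2 fold change of -0.04 ± 0.43, with an adjusted p of 0.972 in edgeR, and without both libraries of mouse 217 it was 0.50 with an adjusted p of 0.527. The counts of a pseudogene, Gm21399, came to at most 1.45% of those of Prdx1 in any library.

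**Figure D2:**
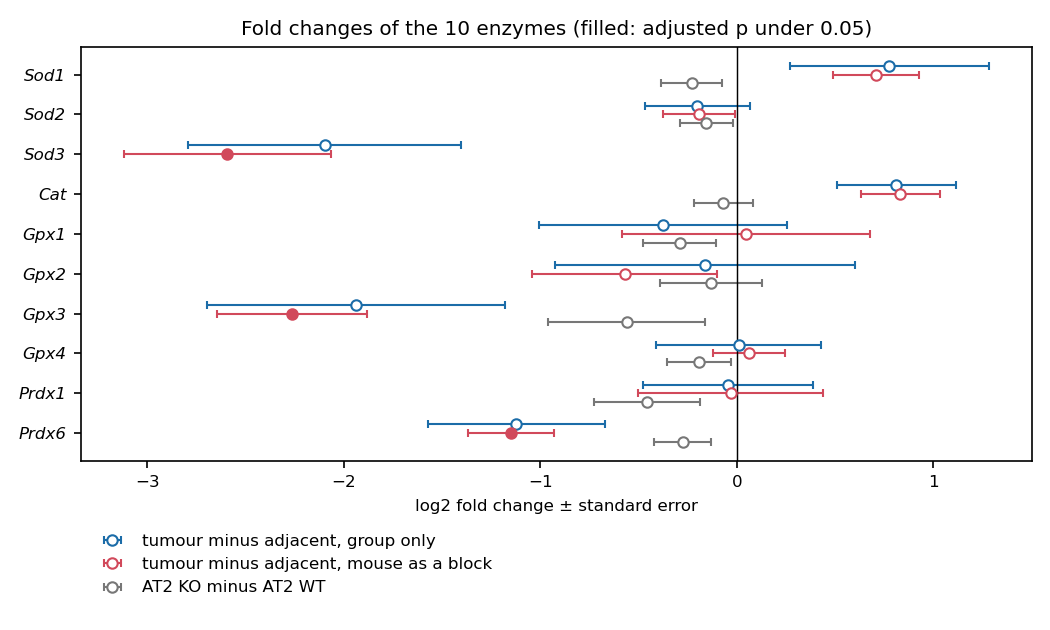
Log2 fold change (horizontal axis) with its standard error for each enzyme, for tumour minus adjacent lung with group alone, for the same with the mouse as a block, and for knockout minus wild-type AT2 cells. Filled points have an adjusted p under 0.05, and only Sod3, Gpx3 and Prdx6 with the block are filled. Sod3 has no AT2 point because its counts were too low to be tested there.

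To compare levels between genes, CPM was divided by the length of the longest coding transcript in kilobases. By this measure Sod1 came first in tumours with 646 ± 383 CPM per kb, followed by Gpx4 with 340 ± 105, Gpx3 with 241 ± 223, Gpx1 with 219 ± 44.3, Prdx1 with 174 ± 62.7 and Cat with 158 ± 3.93 CPM per kb. Prdx6 followed with 109 ± 50.7 CPM per kb, and Sod3, Gpx2 and Sod2 came last with 23.8 ± 23.7, 19.8 ± 15.6 and 16.3 ± 0.607 CPM per kb. Between neighbours in this order the ranges over the 3 libraries overlapped, except between Prdx6 and Sod3. In adjacent lung Gpx3 was first with 923 ± 430 CPM per kb, ahead of Sod1 with 377 ± 153, Gpx4 with 337 ± 156, Gpx1 with 284 ± 244, Prdx6 with 238 ± 87.2 and Prdx1 with 180 ± 70.7 CPM per kb. Sod3 held 102 ± 18.4, Cat 89.8 ± 18.5, Gpx2 22.1 ± 10.6 and Sod2 18.7 ± 2.63 CPM per kb there. The ranges of neighbours overlapped except between Prdx1 and Sod3 and between Cat and Gpx2. These orders depend on the length used: over all annotated exons of a gene, Sod1 had rank 6 in tumours and rank 8 in adjacent lung, while Gpx3 was first in each.

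Within the families, the secreted members took a smaller part in tumours. Sod3 made up 2.74%, 4.42% and 1.72% of the summed superoxide dismutase level per kb in the tumours of mice 102, 217 and 224, against 22.0%, 17.3% and 24.7% in adjacent lung. Gpx3 made up 23.1%, 43.5% and 10.8% of the glutathione peroxidase level per kb in the tumours of the same mice, against 70.1%, 52.9% and 53.7% in adjacent lung. Neither share overlapped between the tissues. Over all annotated exons the share of Sod3 was 8.98% to 21.6% in tumours and 54.2% to 62.5% in adjacent lung, and that of Gpx3 was 14.5% to 52.1% in tumours and 59.9% to 76.4% in adjacent lung. These shares are a description and carry no test.

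**Figure D3:**
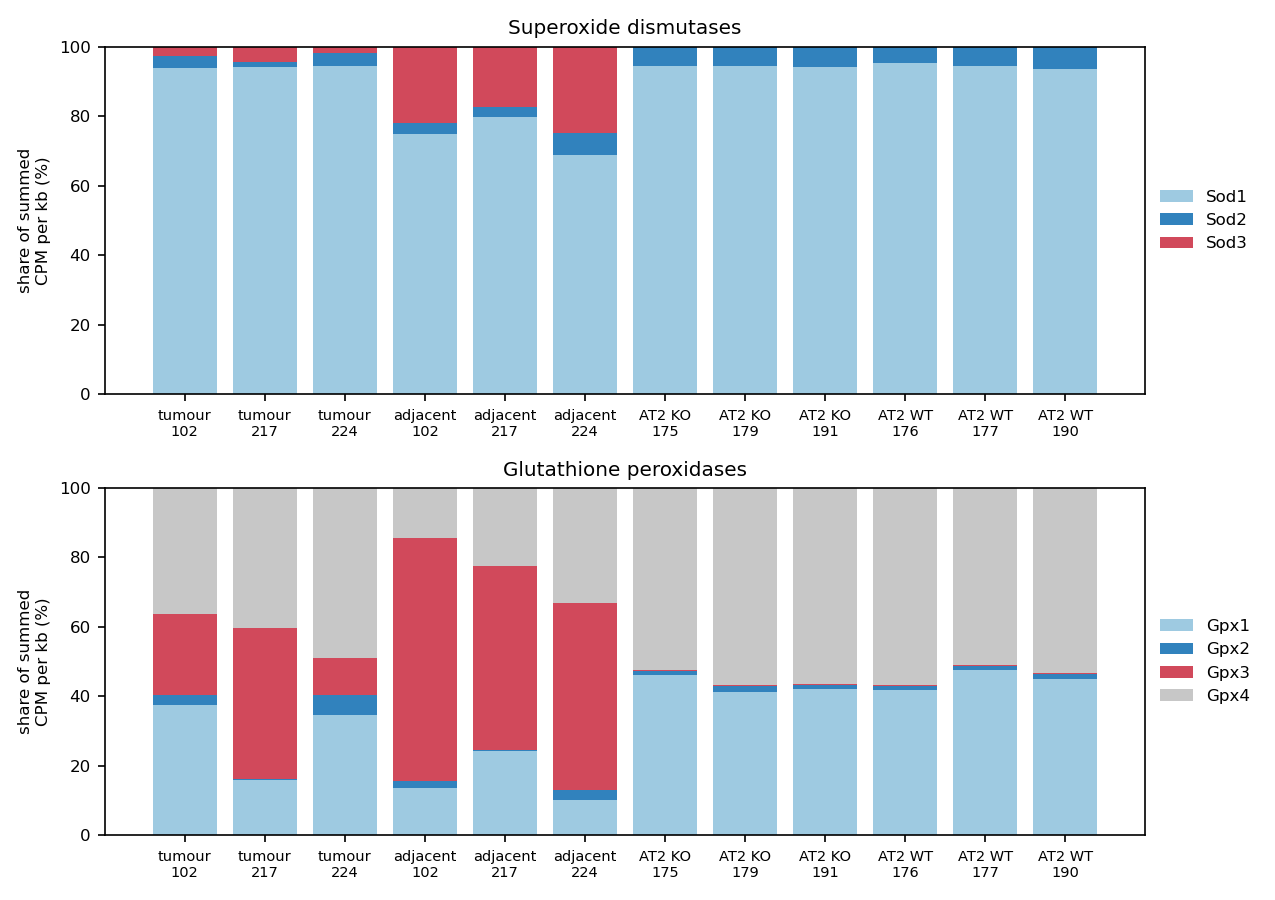
Share of each member (vertical axis, percent) in the summed level per kb of transcript of its family, for the superoxide dismutases (top) and glutathione peroxidases (bottom), in each of the 12 libraries. Sod3 and Gpx3 take more of their family in adjacent lung than in tumours, and are near 0 in sorted AT2 cells.

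The comparison of AT2 cells asks how these genes stood in the alveolar epithelium of knockout mice, at a stage that the submitters' design text places ahead of tumour formation. None of the 9 members tested in edgeR had an adjusted p under 0.05 (0 of 14053 genes did, 0%), and 0 of the 9 had an unadjusted p under 0.05, where 2.47% of genes did. DESeq2 and limma-voom called 0 members as well. The groups did not overlap for 2 of the 10 members, Sod2 and Prdx6, each lower in knockout cells. This was so for 8.30% of all genes (4.18% higher and 4.12% lower in knockout cells). For both members the groups overlapped when counts were scaled by library totals alone, without the TMM factors. The median log2 fold change of the 9 members was -0.23, and that of all genes tested was -0.01. All 9 estimates were below 0, and the standard errors ran from 0.13 to 0.40 log2 units. A p that misses the threshold does not show that the levels were equal.

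Catalase had the highest level per kb of transcript in AT2 cells. It had 1023, 1035 and 971 CPM in knockout mice 175, 179 and 191, against 948, 1100 and 1128 CPM in wild-type mice 176, 177 and 190. The groups overlapped, with a log2 fold change of -0.07 ± 0.15 (adjusted p 0.986, edgeR). Prdx6 had 325, 331 and 349 CPM in knockout cells, against 430, 430 and 357 CPM in wild-type cells. Every knockout value was below every wild-type value, and the log2 fold change was -0.27 ± 0.14 (adjusted p 0.984, edgeR). Scaled by library totals alone the groups of Prdx6 overlapped, with 364 CPM in knockout mouse 191 and 361 CPM in wild-type mouse 190. Sod2 had 89.2, 84.8 and 90.2 CPM in knockout cells, against 91.2, 109 and 94.3 CPM in wild-type cells. Its groups were apart by a small gap as well, with a log2 fold change of -0.16 ± 0.13 (adjusted p 0.984, edgeR). By library totals alone they overlapped too, with 94.0 CPM in knockout mouse 191 and 91.7 CPM in wild-type mouse 176.

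Sod1 had 169, 158 and 158 CPM in knockout cells, against 203, 211 and 155 CPM in wild-type cells (log2 fold change -0.23 ± 0.15). Gpx1 had 189, 167 and 156 CPM in knockout cells, against 193, 268 and 166 CPM in wild-type cells (-0.29 ± 0.19). Gpx4 had 199, 213 and 194 CPM in knockout cells, against 242, 268 and 183 CPM in wild-type cells (-0.19 ± 0.16). In each of these 3 genes the groups overlapped because wild-type mouse 190 was near or below the knockout values, and the adjusted p in edgeR was 0.984. The counts of Gpx4-ps2 were 19.6% to 20.1% of those of Gpx4 in knockout cells and 21.3% to 22.6% in wild-type cells.

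Prdx1 had 236, 233 and 251 CPM in knockout cells, against 243, 518 and 228 CPM in wild-type cells. The high value of wild-type mouse 177 set the mean of its group, and without that library the log2 fold change was 0.03 instead of -0.46 ± 0.27 (adjusted p 0.984, edgeR). Gpx2 had 4.67, 6.47 and 4.39 CPM in knockout cells, against 4.99, 7.04 and 4.99 CPM in wild-type cells, and its groups overlapped.

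The secreted enzymes were close to absent from sorted AT2 cells. Gpx3 had 19, 28 and 19 counts in knockout mice 175, 179 and 191, against 31, 43 and 23 counts in wild-type mice 176, 177 and 190, or 1.11 to 1.53 CPM and 1.32 to 2.46 CPM. Gpx3 had a log2 fold change of -0.56 ± 0.40 (adjusted p 0.984, edgeR). Sod3 had 9, 11 and 1 counts in knockout cells, against 2, 6 and 8 counts in wild-type cells, which was below the filter on low counts. In the same libraries the defining markers of fibroblasts summed to 1.08 to 1.57 CPM in knockout cells and 1.43 to 1.53 CPM in wild-type cells, with Pdgfra and Tcf21 at 0 in all knockout libraries and Tcf21 at 0 in all wild-type libraries. Smooth muscle markers summed to 0.384 to 1.44 CPM in knockout cells and 0.529 to 0.917 CPM in wild-type cells. The lung and AT2 tables were normalised separately, so no level was tested between them. Per kb of transcript the order in knockout and in wild-type AT2 cells was the same: Cat (386 ± 13.0 and 405 ± 37.0 CPM per kb), Sod1 (252 ± 9.88 and 296 ± 47.0), Gpx4 (203 ± 9.82 and 232 ± 43.9), Gpx1 (159 ± 15.7 and 195 ± 49.5), Prdx6 (140.4 ± 5.28 and 169.9 ± 17.6), Prdx1 (105 ± 4.16 and 144 ± 71.2), Sod2 (15.0 ± 0.484 and 16.7 ± 1.62), Gpx2 (4.85 ± 1.06 and 5.32 ± 1.11), Gpx3 (0.792 ± 0.148 and 1.17 ± 0.360) and Sod3 (0.106 ± 0.0785 and 0.0820 ± 0.0464). Over all annotated exons in place of the transcript, Cat stayed first, Gpx1 ranked 2 and Sod1 ranked 6 in both groups. Per kb of transcript, from Sod1 down to Prdx1, the ranges of neighbours overlapped in wild-type cells, and in knockout cells between Gpx1 and Prdx6 only.

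**Figure D4:**
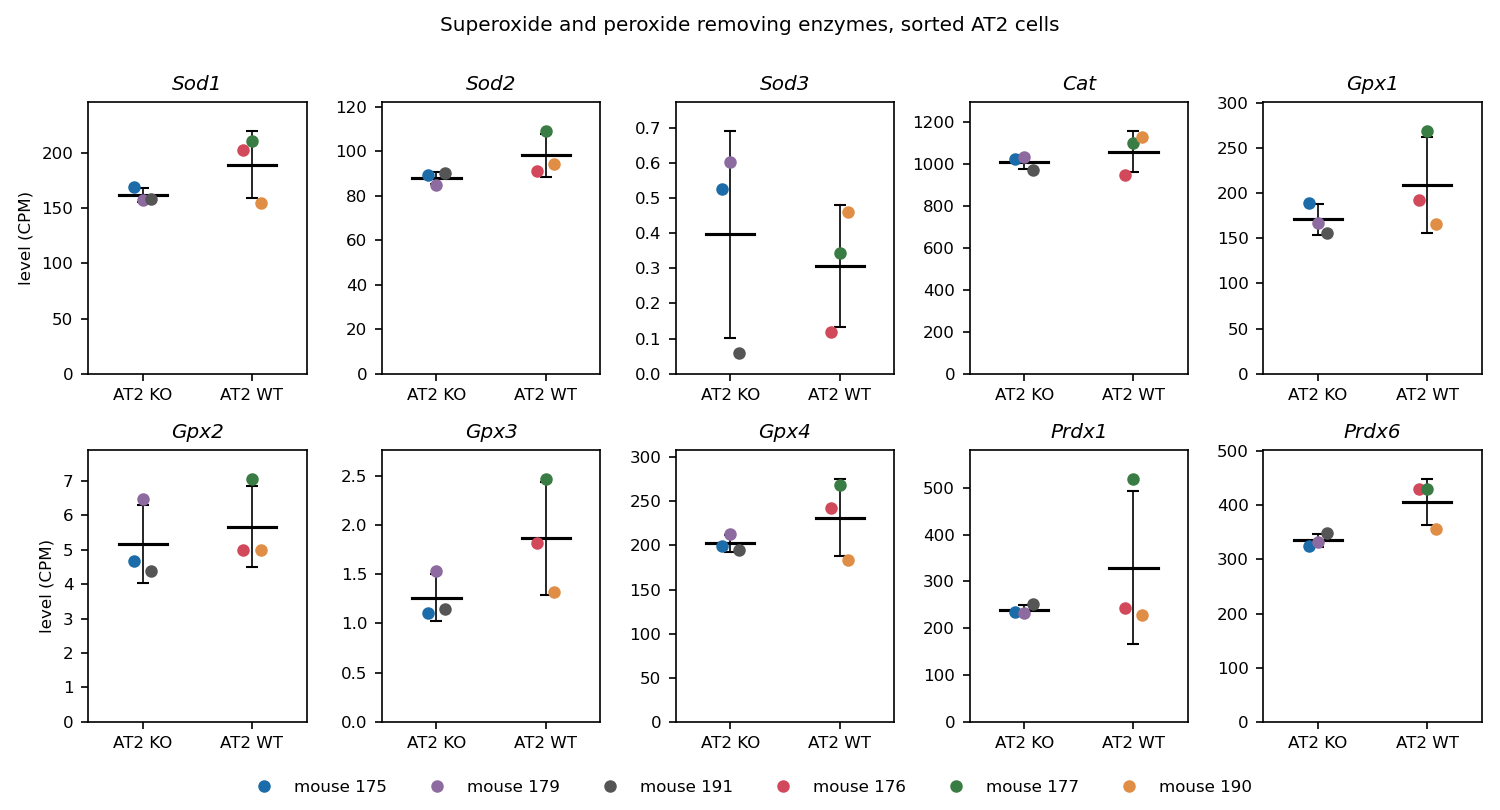
Level of each enzyme in CPM (vertical axes, each starting at 0) in AT2 cells of 3 knockout and 3 wild-type mice. Points are libraries, and bars with whiskers give the mean ± SD. Sod2 and Prdx6 are lower in all knockout libraries by small gaps, which are absent when counts are scaled by library totals alone. Sod3 and Gpx3 lie below 3 CPM in all 6 libraries.

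The genes that supply or surround these enzymes were taken from lists of named genes. With group alone edgeR called 2.86% of all genes tested in lung as higher and 7.18% as lower in tumour. With the block it called 5.57% as higher and 9.34% as lower. Of the 8 other peroxidases, 6 were tested in lung. Prdx4, the peroxiredoxin of the endoplasmic reticulum, had 87.8, 95.7 and 107 CPM in the tumours of mice 102, 217 and 224, against 22.2, 39.0 and 34.7 CPM in adjacent lung. It rose by 1.60 ± 0.32 on the log2 scale (adjusted p 0.0235, edgeR). Gpx7, also of the endoplasmic reticulum, had 2.90, 5.77 and 3.96 CPM in tumours, against 11.2, 19.7 and 12.3 CPM in adjacent lung. Its log2 fold change was -1.78 ± 0.44 (adjusted p 0.0429, edgeR), so these neighbours in function and place went opposite ways. The groups were apart for Prdx4 and for Gpx7. The other 4 did not pass, of which Prdx2 passed with the block, as higher (log2 fold change 0.85, adjusted p 0.0332, edgeR).

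Of 10 genes of glutathione supply 1 passed as higher in tumour, where 2.86% of all genes did (5.57% with the block). Glrx, glutaredoxin, which uses glutathione to reduce protein disulfides, had 114, 169.8 and 126 CPM in tumours, against 27.5, 67.3 and 39.5 CPM in adjacent lung (log2 fold change 1.61 ± 0.40, adjusted p 0.0440, edgeR). The limiting enzyme of glutathione synthesis, Gclc, had a log2 fold change of 0.55 ± 0.39 and the glutathione reductase Gsr one of 0.15 ± 0.51, and neither passed. Of 6 genes of NADPH supply 1 passed, also as higher. Me1, cytosolic malic enzyme, had 1036, 362 and 538 CPM in tumours, against 101, 104 and 108 CPM in adjacent lung. Adjacent samples were near equal, and each tumour was well above them (log2 fold change 2.62 ± 0.45, adjusted p 0.0155, edgeR). G6pdx and Idh1, other sources of NADPH, passed with the block as higher (adjusted p 0.0464 and 0.0308, edgeR) and not with group alone (0.126 and 0.0818, edgeR). On group alone Idh1 passed in DESeq2 (adjusted p 0.0286) and in edgeR with the gene length correction (adjusted p 0.0412).

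Of 7 genes of peroxisome import and oxidation 1 passed, as higher, where 2.86% of all genes did (5.57% with the block). Pex11a, which acts in peroxisome division, had 41.6, 51.2 and 41.6 CPM in tumours, against 17.9, 21.6 and 18.4 CPM in adjacent lung (log2 fold change 1.21 ± 0.28, adjusted p 0.0339, edgeR). Pex5, the receptor that carries catalase and other proteins into peroxisomes, had a log2 fold change of 0.94 ± 0.32 and passed with the block alone (adjusted p 0.0469, edgeR). None of the 6 genes of the thioredoxin system and none of the 7 genes of selenoprotein synthesis passed with or without the block, with edgeR, and none with DESeq2 or limma-voom on group alone. Other settings called 1 thioredoxin gene as lower: edgeR with library totals only, with and without the block, and without mouse 217 or its tumour, and DESeq2 and limma-voom with the block. Of these genes 1, Srxn1, had an unadjusted p under 0.05 in edgeR's test on group alone. Of 4 genes of copper supply, Atox1, the copper chaperone, passed with the block alone (log2 fold change 1.67, adjusted p 0.0191, edgeR), where the tumour of mouse 217 held 627 CPM against 120 and 128 CPM in the other tumours.

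Of 10 oxidant producing enzymes 9 were tested, and 0 passed in edgeR with group alone. Of the 9, 5 had an unadjusted p under 0.05, where 24.0% of all genes did. DESeq2 called 4 as lower and limma-voom 0. Over all 19995 genes DESeq2 called at least the 2002 that it shared with edgeR, and 30.7% of its calls were higher in tumour. Its unadjusted p, a looser measure than these calls, was under 0.05 for 5423 genes. The median log2 fold change of the 9 enzymes was -1.46 in edgeR, against 0.04 for all genes. Nox4, the NADPH oxidase that releases hydrogen peroxide, had 15.0, 11.6 and 4.17 CPM in tumours, against 88.5, 29.4 and 26.5 CPM in adjacent lung, and passed with the block (log2 fold change -2.19, adjusted p 0.0215, edgeR). Of 8 genes of NRF2 control, the pathway that raises antioxidant genes under oxidative stress, 0 passed in edgeR with group alone. An unadjusted p under 0.05 was found for 3 of them, where 24.0% of all genes had one. DESeq2 and limma-voom each called 1 as lower. Nqo1, a classical target, had 1.09, 1.91 and 0.787 CPM in tumours, against 4.72, 5.01 and 4.58 CPM in adjacent lung, and passed with the block as lower (log2 fold change -2.01, adjusted p 0.0420, edgeR). Hmox1, another target, stood the other way, with 163 ± 16.2 CPM in tumours and 72.6 ± 31.6 CPM in adjacent lung. The groups were apart for Hmox1, but its log2 fold change of 1.16 ± 0.40 did not pass in edgeR (adjusted p 0.117 with group alone and 0.0896 with the block). Hmox1 and the genes named here as passing with the block alone were chosen after their values were seen. Of the calls with group alone, those of Prdx4 and Gpx7 were lost when any 1 lung library but the tumour of mouse 217 was left out, and that of Glrx when any but the adjacent lung of mouse 217 was. The call of Pex11a was lost without any 1 of the 6 libraries, and that of Me1 without any 1 of the 3 adjacent libraries. Over these fits the adjusted p in edgeR was 0.0459 to 0.0827 for Prdx4, 0.0383 to 0.140 for Gpx7, 0.0417 to 0.152 for Glrx, 0.0806 to 0.126 for Pex11a and 0.00983 to 0.0660 for Me1. With all libraries, the call of Gpx7 was also lost with RLE size factors and without a filter on low counts (adjusted p 0.0506 and 0.0600, edgeR). Those of Glrx (0.0554 and 0.0719) and Pex11a (0.0652 and 0.0635) were lost with library totals only and without the filter, as adjusted p in edgeR.

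In AT2 cells no gene of these lists passed in edgeR, DESeq2 or limma-voom. Prdx2, named after its values were seen, had an unadjusted p under 0.05 in edgeR, with 72.0 ± 3.05 CPM in knockout cells and 92.7 ± 18.3 CPM in wild-type cells. Its adjusted p in edgeR was 0.984.

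**Figure D5:**
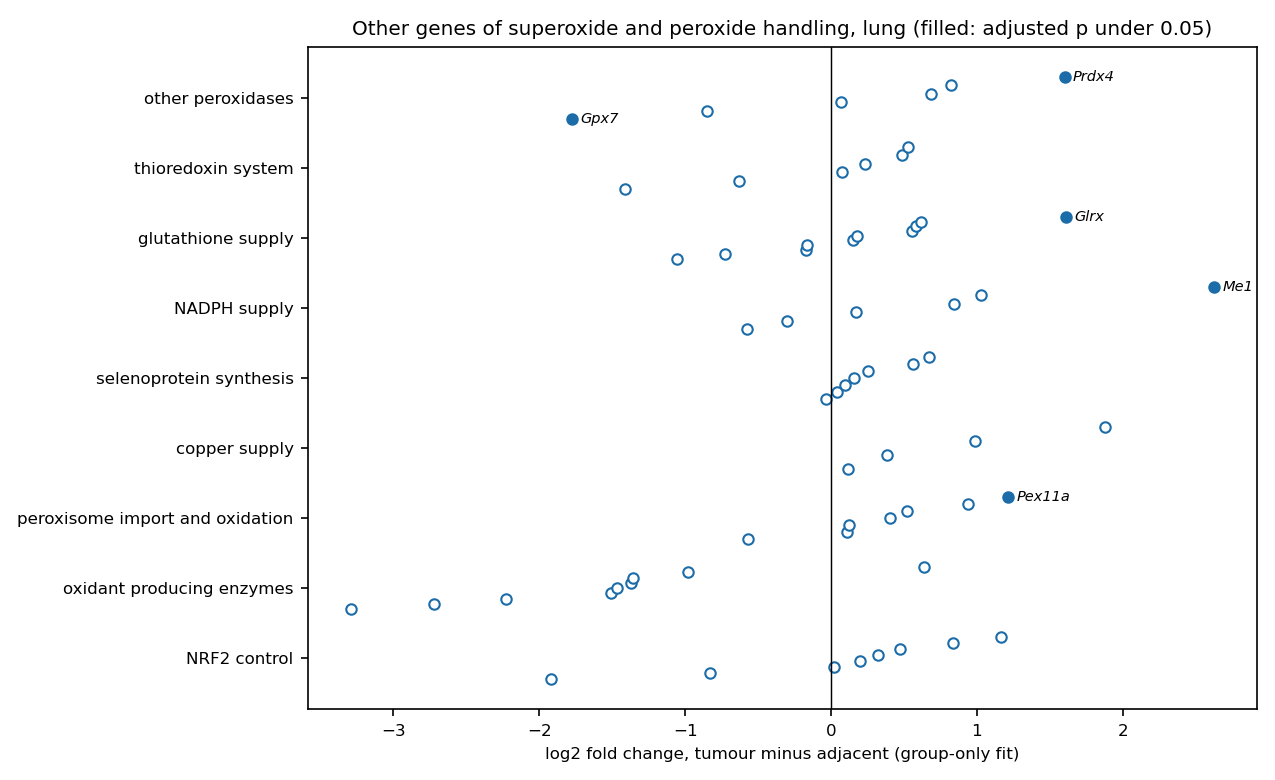
Log2 fold change of tumour minus adjacent lung with group alone (horizontal axis) for the tested genes of 9 lists, 1 point per gene. Filled and named points have an adjusted p under 0.05: Prdx4, Glrx, Me1 and Pex11a are higher in tumours and Gpx7 is lower. Of the 9 oxidant producing enzymes 8 lie below 0, where the median of all genes tested is 0.04.

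RefSeq promoter windows (build GRCm38.p6), from 250 bases before to 50 bases after a start site, were at hand for 8 of the 10 members, in 11 windows. The core of the antioxidant response element, TGACNNNGC, which NRF2 binds with a small MAF partner, was searched on both strands. It lay in 2 of the 11 windows, those of Prdx1 and Sod1, and in 12.4% of 32851 windows of all genes. The GC box, GGGCGG, lay in 9 of the 11 windows and in 35.7% of all windows. Several of the 11 windows are those of Gpx4, and 2 of these overlap and share the same 2 GC boxes, so the windows are not independent. No match of one motif overlapped one of the other. The window of Prdx1 (chr4:116685349-116685648, plus strand) is shown for its match, in capitals, on the minus strand 133 bases before the start. That of Gpx3 (chr11:54902604-54902903, plus strand) is shown because Gpx3 was lower in the tumour of every mouse, and it holds no such core, so no letters are in capitals.
Prdx1: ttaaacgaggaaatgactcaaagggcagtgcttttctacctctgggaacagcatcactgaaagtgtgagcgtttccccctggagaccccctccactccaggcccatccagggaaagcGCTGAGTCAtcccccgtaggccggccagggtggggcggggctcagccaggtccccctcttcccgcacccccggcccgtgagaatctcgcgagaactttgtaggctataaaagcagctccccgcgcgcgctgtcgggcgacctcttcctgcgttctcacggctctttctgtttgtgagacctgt
Gpx3: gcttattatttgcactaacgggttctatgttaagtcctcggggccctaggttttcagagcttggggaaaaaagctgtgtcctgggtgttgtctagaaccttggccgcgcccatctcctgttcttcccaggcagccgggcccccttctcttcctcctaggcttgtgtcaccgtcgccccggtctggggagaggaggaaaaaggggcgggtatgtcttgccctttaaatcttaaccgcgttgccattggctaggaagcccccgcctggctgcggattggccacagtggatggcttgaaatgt
A match is a description of the letters and says nothing of binding. Prdx1 and Sod1, the members whose windows hold the core, had log2 fold changes of -0.04 ± 0.43 and 0.78 ± 0.51 in tumours and did not pass in edgeR with group alone or with the block. Sod1 passed with the block in DESeq2 (adjusted p 0.0189).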

How the data were processed

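Poly-A RNA of 6 lung and 6 AT2 libraries was sequenced from a NEBNext Ultra kit, which does not mark strand, per the labels' protocols. The authors deposited 2 tables of raw counts per gene. Reads were mapped to GRCm38, and the tools named were Trimmomatic 0.39, FastQC, HISAT2, DESeq2 1.28.1 and StringTie 1.3.3b, per the submitters' processing notes. What counted the reads, and with which strand option and annotation, was not given in the sources used here. Rows that matched no gene name in GENCODE M21 carried 0.0388% of lung and 0.00383% of AT2 counts.

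Each table was tested apart with edgeR 4.0.16 under R 4.3.3 (quasi-likelihood test, TMM, its filter on low counts, Benjamini-Hochberg adjustment over all genes, threshold 0.05), with group as the only term. Standard errors of log2 fold changes came from the F statistic. limma 3.58.1 and DESeq2 1.42.0 were alternatives. The script was tested on simulated data. Mice are separate animals, and tumour and adjacent lung of a number came from 1 animal. Deviations from the group means correlated within each mouse, across genes, at 0.273 (102), 0.459 (217) and 0.366 (224), so the numbers pair the lung samples and blocked values stand beside the others. No pair of libraries of a group agreed within sampling noise (chi-square per degree of freedom at least 7.23).

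The members and the lists were chosen with earlier results of these data known. Genes named outside the members are those of the lists with an adjusted p under 0.05 with group alone, at most 4 per list, and the exceptions stated. Possible shared reads were sought as transcripts at least 90% identical over 400 bases. Scaf4 overlaps Sod1 and Fntb overlaps Gpx2 on the opposite strand, with 0 exonic bases shared.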

Additional observations from a re-analysis of the deposited data

How the results depend on the processing

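In lung, edgeR with group alone called 0 members and 2007 genes. Members called were 1 with library totals only, with DESeq2, with limma-voom and without both libraries of mouse 217. Genes called were 3729 with DESeq2 and 847 without mouse 217. Of the 2007 genes called with group alone, 1829 were also called with library totals only and 1867 with limma-voom. With the replicate block 3 members (2980 genes) were called, and 4 (3202 genes) with the block and a gene length correction. Further settings were chosen after seeing the data. With the block, 5 members and 6353 genes were called by DESeq2, 4 and 4542 by limma-voom, 3 and 3229 with library totals only, 3 with RLE size factors and 2 without a filter on low counts. The block called 0 members without mouse 102, 2 without mouse 217, and 0 members and 0 genes without mouse 224. Of the 2007 genes, 1707 were also called with the block and RLE size factors and 1331 with the block and no filter. With the block, 1107 of them were called without mouse 102 and 1088 without mouse 217. Leaving out 1 library called 0 to 2 members and 598 to 1854 genes. The share of calls that were higher in tumour was 28.5% with group alone, 17.6% with library totals only, 37.3% with the block and 47.2% with the block and the length correction. With library totals only the median log2 fold change of all genes was -0.18, against 0.04.

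Direction turned for 4 members that passed in no setting. Gpx4 was -0.22 with library totals only, -0.17 with these and the block, -0.038 without the filter, and -0.34 to 0.46 with 1 library left out. Gpx1 was 0.021 with limma-voom, 0.046 with the replicate block, 0.14 with the block and length correction, 0.065 with the block in DESeq2, 0.064 with the block and RLE size factors, 0.034 with the block in limma-voom, 0.64 without mouse 217 (0.79 with the block), and -0.82 to 0.56 with 1 library left out. Prdx1 was 0.092 with the length correction, 0.084 with that and the block, 0.50 without mouse 217 (0.52 with the block), and -0.32 to 0.31 with 1 library left out. Gpx2 ran from -0.82 to 0.28 with 1 library left out. The causes were not tested.

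In AT2 cells no setting called a member. Genes called were 17 without the filter, 1 with DESeq2, and 0 to 1 with 1 library left out. Log2 fold changes ran from -0.33 to 0.053 for Gpx2 and from -0.66 to 0.027 for Prdx1. Without wild-type mouse 190, 5 members had an unadjusted p under 0.05 in edgeR, as did 1579 of the 14488 genes tested in that fit. No paired analysis was possible because knockout and wild-type AT2 mice share no number. Depth limits Sod3 and Gpx3 there.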
